A study of Mus musculus with 12 samples.

Results

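Nuclear and mitochondrial genes of the respiratory chain were taken by symbol from the series' count table: Nduf genes of the A, B, C, S and V series, Sdha to Sdhd, Uqcr genes, Cox4 to Cox8 genes with a subunit letter, Atp5 genes, and the mitochondrial Nd, Co, Cytb and Atp genes. They number 86 of 14881 genes, 78 nuclear and 8 mitochondrial. By symbol, the nuclear members comprise 37 genes of complex I, 4 of complex II, 8 of complex III, 12 of complex IV and 17 of complex V. Ndufa4 is counted with complex I by its symbol, although its product is known as a subunit of complex IV. The mitochondrial members are mt-Nd1 to mt-Nd6 (6 genes), mt-Cytb and mt-Co1. mt-Nd4l, mt-Co2, mt-Co3, mt-Atp6, mt-Atp8 and the nuclear genes Cox6b2, Cox6c2, Cox7b2, Cox8b, Cox8c, Ndufa11b, Ndufb4c and Ndufs6b also match the symbols but were not among the 14881 genes. The 86 members all passed the filter on low counts, as did every gene of the table.

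The respiratory chain is a set of protein complexes in the inner mitochondrial membrane. Complexes I and II pass electrons from nutrients to ubiquinone, complex III passes them on to cytochrome c, complex IV reduces oxygen, and complex V, the ATP synthase, uses the resulting proton gradient to make ATP. Most subunits are encoded in the nucleus and imported, while a few core subunits of complexes I, III, IV and V are encoded by the mitochondrial genome, which is transcribed as long precursors from both strands and cut at the tRNAs. Neurons draw most of their ATP from this pathway, and it is a common readout of energy metabolism in amyloid models.

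RNA was sequenced from the brains of 12 male APPswe mice, which carry a transgene for amyloid precursor protein with the Swedish mutation, at 22 to 26 months of age. Into the cisterna magna went 5 µL of AAV1, an adeno-associated virus vector with a CMV promoter, coding for enhanced green fluorescent protein (eGFP) or the mouse form of vascular endothelial growth factor C (mVEGF-C), which drives lymphatic vessel growth. Weekly intraperitoneal doses of 40 mg/kg of control mouse immunoglobulin (mIgG) or of mAducanumab (mAdu), an antibody to aggregated amyloid beta, followed. There were 4 groups of 3: mice 1 to 3 had eGFP+mIgG, 4 to 6 eGFP+mAdu, 7 to 9 mVEGF-C+mIgG, and 10 to 12 mVEGF-C+mAdu, each giving 1 library from RNA that had been linearly amplified. The comparisons ask whether antibody, vector or both alter respiratory chain transcripts in transgenic mice, and no group lacks the APPswe background or the viral injection.

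The series description gives the tissue as hippocampus of the right hemisphere, whereas the source label of each library says brain meninges. The median level of 6 markers of hippocampal fields CA1 and CA3 was 105 to 130 CPM (read counts scaled to library size) and that of 5 excitatory neuron markers 243 to 295 CPM, against 4.23 to 10.9 CPM for 5 meningeal fibroblast markers and 9.12 to 13.2 CPM for 4 choroid plexus markers. Libraries held 23213612 to 29295266 counted reads. App, which the transgene adds to, lay between 4721 and 5507 CPM in 10 libraries. In mouse 5 it was at 1342 CPM, which goes against the strain label. Mouse 6, at 3716 CPM, was also below these 10 and lay between mice 4 (5487 CPM) and 5. Vegfc did not pass for the vector (log2 -0.24, adjusted p = 0.349, edgeR) and had lower means with mVEGF-C (3.41 ± 0.188, 3.29 ± 0.188, 2.71 ± 0.825 and 2.98 ± 0.407 CPM in the order of the groups above, SD, n = 3). The identifier ENSMUSG00000045999, without a symbol, held 8.59%, 8.51% and 2.44% of counted reads in eGFP+mIgG and at most 0.105% in any other library. Mice 3, 6, 9 and 12 held the middle value of their group for 82.5%, 81.9%, 79.2% and 85.9% of the genes that varied beyond counting noise (chi-square p under 0.001). Whether libraries share material was not tested. edgeR's test called no member with all libraries or without these 4. The second fit has fewer libraries per group, so its lack of calls cannot show that the 4 made no difference. With mice 5 and 6 left out, eGFP+mAdu holds only mouse 4, so no count is given for that fit.

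Promoters of the members were read from RefSeq (GRCm38.p6), which matched 63 of 78 nuclear members by symbol with 68 windows of 300 bases, from 250 before to 50 after the transcription start. Nuclear respiratory factor 1 (NRF1), ETS factors of the GABP type, YY1 and oestrogen-related receptors are known to bind promoters of this gene family. On either strand, the NRF1 letters (GCGC, any base, then TGCGC) occurred in 18 of 68 windows (26.5%) against 9.06% of 14465 windows of all genes in the table. The ETS letters CCGGAAG occurred in 23.5% against 15.4%, the YY1 letters AAGATGGCG in 10.3% against 2.66%, the ERR letters TCAAGGTCA in 2.94% against 0.29%, and TATAAA in 8.82% against 7.32%. The 150 bases before the start are printed for Sdhd and Ndufs7, the nuclear members with the smallest p in each direction in the comparison of double treatment with double control, and for the isoform pair Cox7a1 and Cox7a2. They run 5′ to 3′ along the gene's strand, with capitals marking the NRF1 and ETS letters in Sdhd and TATAAA in Ndufs7. The windows lie at chr9:50603850-50603999 on the minus strand (Sdhd), chr10:80249299-80249448 on the plus strand (Ndufs7), chr7:30184021-30184170 on the plus strand (Cox7a1) and chr9:79759854-79760003 on the minus strand (Cox7a2).
Sdhd: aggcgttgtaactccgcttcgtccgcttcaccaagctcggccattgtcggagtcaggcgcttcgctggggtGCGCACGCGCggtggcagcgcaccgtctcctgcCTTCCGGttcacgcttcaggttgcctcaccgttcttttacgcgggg
Ndufs7: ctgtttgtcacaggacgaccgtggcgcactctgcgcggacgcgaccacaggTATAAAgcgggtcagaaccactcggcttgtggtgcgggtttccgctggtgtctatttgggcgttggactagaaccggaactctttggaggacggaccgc
Cox7a1: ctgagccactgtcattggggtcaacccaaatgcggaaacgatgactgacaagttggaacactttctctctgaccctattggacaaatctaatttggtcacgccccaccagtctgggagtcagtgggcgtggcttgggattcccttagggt
Cox7a2: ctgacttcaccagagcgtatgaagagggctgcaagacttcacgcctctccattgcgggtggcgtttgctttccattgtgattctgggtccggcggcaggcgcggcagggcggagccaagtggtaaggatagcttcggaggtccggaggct
The printed windows of Cox7a1 and Cox7a2 hold none of the 5 letter strings, which says nothing about binding there.

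The nuclear members were abundant and steady across the 12 mice. Their median level was 85.5 CPM against 21.8 CPM over all genes, and their median coefficient of variation within groups was 3.95% against 6.35% over all genes. The genes were not matched for level, and counting noise weighs more on low counts, so the lower spread cannot be read as particular to the members. The steadiest members over the 12 mice were Uqcrh (2.04%), a hinge subunit of complex III, Atp5h (2.07%), a stalk subunit of complex V, and Sdha (2.17%), the flavoprotein of complex II. The most variable were Cox7a1 (35.5%), Ndufa4l2 (22.8%) and Cox6a2 (12%), which are also among the lowest expressed. In bulk tissue, fewer cells of a type and less RNA per cell cannot be told apart. Exons of 28 nuclear members overlap those of another annotated gene, 25 of them a gene on the opposite strand, and the use of strand in counting is not given in the sources used here. Those members' counts are uncertain to that extent, and among the members named with values here this touches Ndufs1, Ndufb5, Ndufb6, Ndufa4l2, Cox5a, Cox6a2, Atp5a1, Atp5f1, Atp5g2, Atp5j and Atp5l.

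In complex I, which oxidises NADH, the core subunits had close group means. Ndufv1, which binds NADH and flavin, was at 180 ± 2.65, 188 ± 7.71, 179 ± 9.74 and 183 ± 6.61 CPM in eGFP+mIgG, eGFP+mAdu, mVEGF-C+mIgG and mVEGF-C+mAdu (SD, n = 3). Ndufs1, the large iron-sulfur subunit of the electron input module, was at 217 ± 8.74, 222 ± 4.36, 222 ± 8.16 and 230 ± 7.83 CPM. Ndufs1 ran from 207 to 224 CPM in eGFP+mIgG and from 223 to 238 CPM in mVEGF-C+mAdu, so even the groups with the lowest and highest means overlapped.

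In complex II, which is also an enzyme of the tricarboxylic acid cycle, Sdha was at 457 ± 12, 462 ± 7.63, 453 ± 10.1 and 462 ± 12.3 CPM (SD, n = 3). Sdhb, the iron-sulfur subunit, was at 126 ± 2.39, 128 ± 2.19, 123 ± 7.99 and 125 ± 4.06 CPM. In complex III, the core subunit Uqcrc1 was at 231 ± 10.3, 236 ± 9.48, 225 ± 13.9 and 234 ± 4.19 CPM, and Uqcrfs1, the Rieske iron-sulfur protein, at 99 ± 2.66, 104 ± 0.764, 97.5 ± 3.33 and 99.6 ± 3.36 CPM. Mouse 8 was the lowest of the 12 for Sdhb (114 CPM), Uqcrc1 (210 CPM) and Uqcrfs1 (95 CPM).

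In complex IV, Cox5a was at 87.2 ± 0.556, 91.5 ± 1.29, 87.5 ± 6.41 and 92.1 ± 1.53 CPM and Cox5b at 165 ± 7.36, 165 ± 3.69, 164 ± 8.2 and 158 ± 1.16 CPM (SD, n = 3). Both encode nuclear subunits that surround the mitochondrial catalytic core. In complex V, the alpha and beta subunits of the catalytic head were the most abundant nuclear members per read, Atp5a1 with 1108 CPM (1041 to 1146 over the 12 mice) and Atp5b with 1396 CPM (1273 to 1458). Atp5c1, the central stalk, was at 257 ± 1.88, 266 ± 7.12, 261 ± 6.35 and 270 ± 11.9 CPM.

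Levels of different genes were set against each other per kilobase of merged exon, a scale that depends on the annotated length. On it, Cox8a (438 CPM per kb), Atp5a1 (353), Atp5b (330) and Cox6a1 (226) were the highest nuclear members, and Ndufa4l2 (0.665), Cox7a1 (1.43) and Atp5l (2.46, over 6443 bases of merged exon) the lowest. Isoforms of 1 subunit differed widely. Cox6a1, the widespread form, stood at 226 CPM per kb and Cox6a2, the heart and muscle form, at 4.31, while Cox7a2 stood at 136, Cox7a2l, a supercomplex factor, at 84.6 and the muscle form Cox7a1 at 1.43. Ndufa4 stood at 131 and its homologue Ndufa4l2 at 0.665. The 3 genes for the c subunit of the ATP synthase ring, which code for the same mature peptide, ranked Atp5g3 (57), Atp5g1 (21.5) and Atp5g2 (12.3), and the ranges of these 3 over the 12 mice did not overlap.

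**Figure D1:**
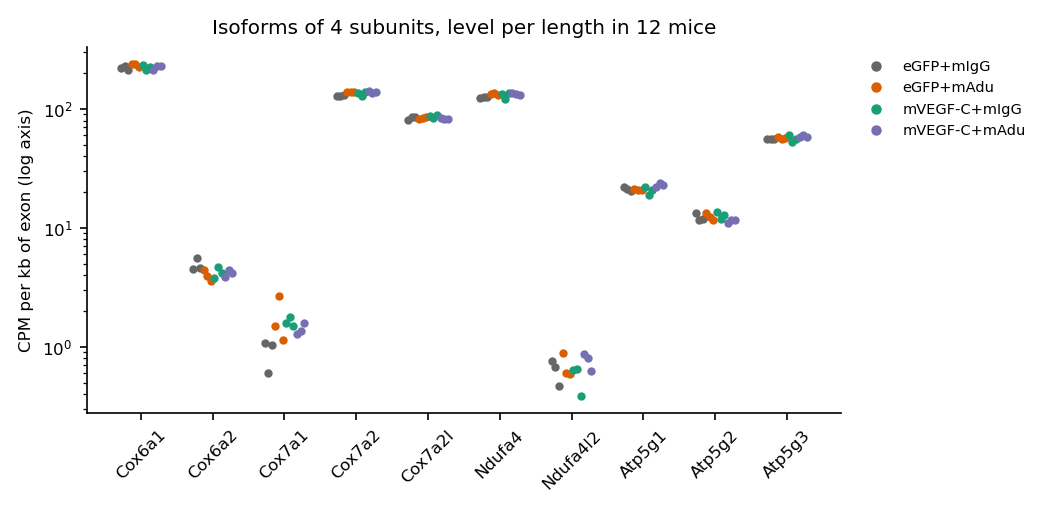
Level per kilobase of merged exon (log axis) of 10 isoforms of 4 subunits, 1 point per mouse, coloured by group. Within each subunit the order of isoforms is the same in all 4 groups: Cox6a1 lies at 211 to 241 CPM per kb and Cox6a2 at 3.58 to 5.54, and Atp5g3, Atp5g1 and Atp5g2 keep their order.

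Double treatment was set against double control, that is mVEGF-C+mAdu against eGFP+mIgG. None of the 78 nuclear or 8 mitochondrial members passed the quasi-likelihood test of edgeR (Benjamini-Hochberg adjusted p under 0.05), while 324 of all genes (2.18%) did. At an unadjusted p under 0.05 there were 10 nuclear members and 1 mitochondrial member, against 20.4% of all genes. DESeq2 called 0 nuclear members and 1 mitochondrial member (3.31% of all genes), and limma-voom 6 and 1 (17.9%). Shares of all genes for DESeq2, here and below, are of the genes to which it gave an adjusted p. The median log2 change of the nuclear members was 0.02, with 51 of 78 above 0, against a median of -0.0036 and 48.9% above 0 over all genes. For 74 of 78 nuclear members the 95% interval of the change lay within 1.25-fold either way, as it did for 63.4% of all genes. That share is not matched for level, here and in the comparisons below. The plot of all 86 changes shows intervals clustered at 0, with the widest ones belonging to low expressed members.

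**Figure D2:**
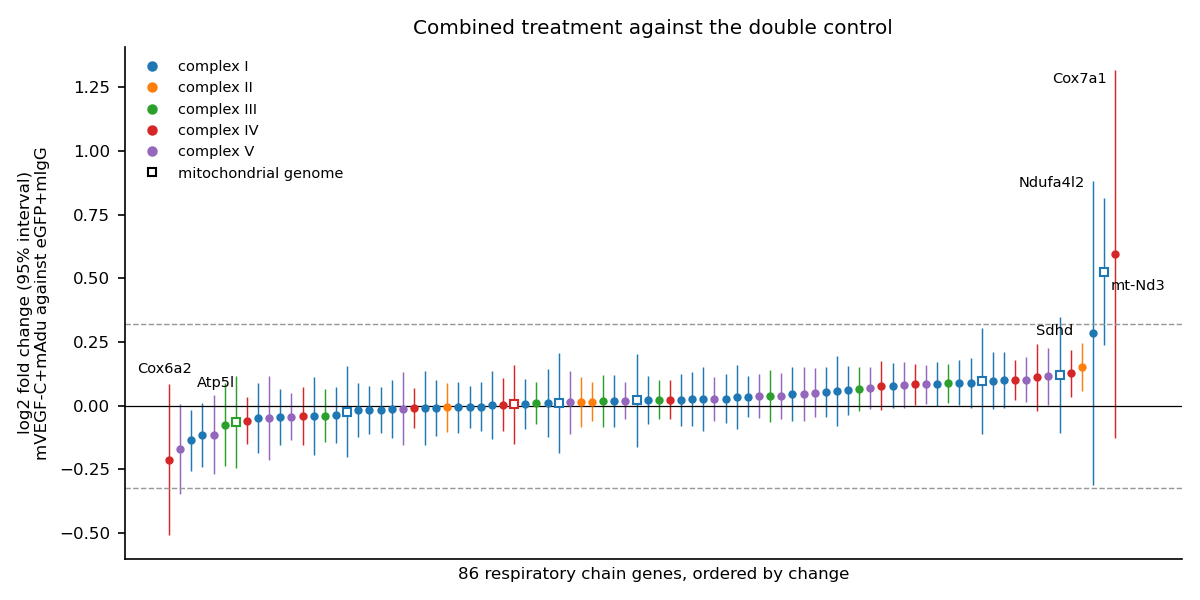
log2 fold change of each of the 86 members in mVEGF-C+mAdu against eGFP+mIgG with its 95% interval, ordered by change and coloured by complex, open squares for the mitochondrial genome and dashed lines at 1.25-fold. Most intervals lie between the dashed lines. mt-Nd3 (0.53) and Sdhd (0.15) lie above 0 with their intervals, and Cox7a1 and Ndufa4l2 have the widest intervals.

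Sdhd, a membrane anchor of complex II that helps bind ubiquinone, had the smallest p among nuclear members (gene at 9:50596357-50603812, minus strand, mm10). Its level was 72.4, 69.7 and 71.4 CPM in eGFP+mIgG, 73.9, 72.8 and 70.7 in eGFP+mAdu, 74.8, 69.8 and 78.9 in mVEGF-C+mIgG, and 79.5, 77.2 and 80.8 in mVEGF-C+mAdu. All 3 mice with both treatments were above all 3 double controls and all 3 eGFP+mAdu mice, and mice 7 and 8 of mVEGF-C+mIgG lay below them. The log2 change against the double control was 0.15 (SE 0.0444, adjusted p = 0.0768, edgeR), and with only those groups in the fit the adjusted p was 0.0417. The change was 0.14 (adjusted p = 0.575, edgeR) without mice 3, 6, 9 and 12. The changes of Sdha, Sdhb and Sdhc, the rest of complex II, were 0.02, -0.0066 and 0.01.

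The 10 nuclear members with an unadjusted p under 0.05 came from all 5 complexes. Cox7b, a small complex IV subunit, was at 124, 118 and 117 CPM in eGFP+mIgG and 129, 137 and 127 CPM in mVEGF-C+mAdu, and Cox7a2, the widespread COX7A form, at 121, 122 and 125 against 135, 129 and 130 CPM. Both were higher in each of the doubly treated mice than in each control, by 0.13 (SE 0.0437, adjusted p = 0.12, edgeR) and 0.10 (SE 0.0371, adjusted p = 0.14, edgeR) on the log2 scale. Ndufs7, a subunit that carries an iron-sulfur cluster next to the quinone site of complex I, was at 60.6, 63.8 and 61.7 CPM in eGFP+mIgG and 55, 57.6 and 56.7 CPM in mVEGF-C+mAdu, lower in all 3. Its log2 change was -0.14 (SE 0.0562, adjusted p = 0.188, edgeR). Atp5l, subunit g of the ATP synthase (-0.17, SE 0.0831), and Ndufb7, of the membrane arm of complex I (-0.12, SE 0.0592), also had negative changes that did not pass. In all, 16 nuclear members were higher in each doubly treated mouse than in each control and 3 were lower in each, against 13.9% and 13.4% of all genes.

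**Figure D3:**
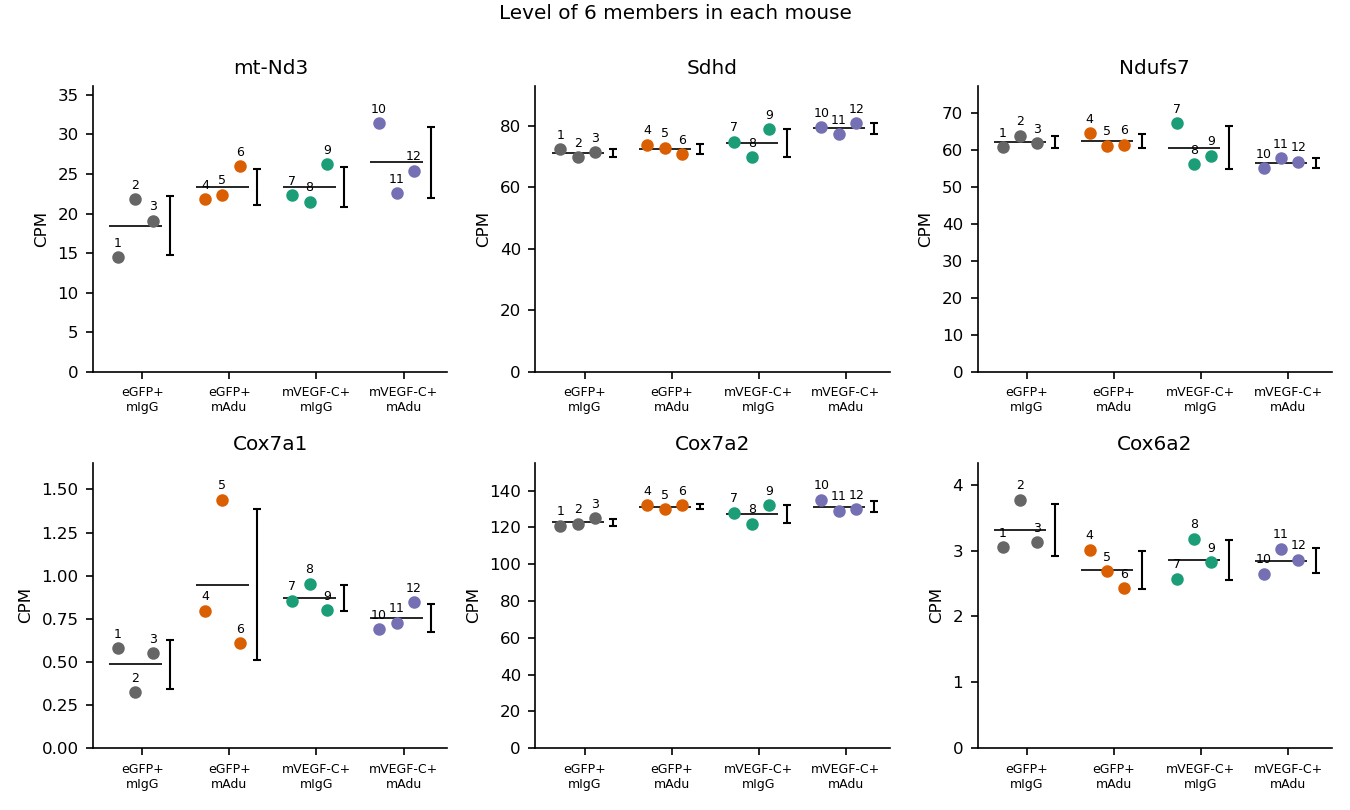
CPM of 6 members in each mouse (numbered points) by group, with the mean (line) and SD (bar, n = 3), on axes that start at 0. Sdhd is at 77.2 to 80.8 CPM in the doubly treated mice and 69.7 to 72.4 in the double controls, Ndufs7 at 55 to 57.6 and 60.6 to 63.8, and Cox7a1 at 0.691 to 0.845 and 0.325 to 0.581.

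The antibody alone was tested in the mice given the eGFP vector, eGFP+mAdu against eGFP+mIgG. By edgeR (quasi-likelihood, Benjamini-Hochberg) 0 nuclear and 0 mitochondrial members passed, and 5 of all genes (0.0336%) did. Unadjusted p was under 0.05 for 4 nuclear members and 1 mitochondrial member, against 9.21% of all genes. DESeq2 called 0 members and limma-voom called 0 nuclear members and 1 mitochondrial member, with 0.422% and 3.41% of all genes. The nuclear changes were small and mostly of 1 sign: 65 of 78 were above 0 (49.2% of all genes), with a median of 0.03 (all genes -0.0016), and 75 had intervals within 1.25-fold (66.8% of all genes). By complex, 32 of 37 members of complex I, 3 of 4 of II, 6 of 8 of III, 11 of 12 of IV and 13 of 17 of V were above 0. The 3 eGFP+mAdu mice were above the 3 controls for 18 nuclear members and below them for 2, against 7.63% and 7.78% of all genes.

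Among these, Cox7a2 was at 132, 130 and 132 CPM in eGFP+mAdu against 121, 122 and 125 CPM (log2 0.10, SE 0.037, adjusted p = 0.433, edgeR). Ndufb5, a membrane arm subunit of complex I, was at 102, 98.6 and 103 against 92.7, 96.9 and 94.5 CPM (log2 0.09, SE 0.0412, adjusted p = 0.495, edgeR). The groups did not overlap for either gene. The lowest p belonged to the muscle isoform Cox7a1, with 0.797, 1.44 and 0.609 CPM against 0.581, 0.325 and 0.551 CPM (log2 0.93, SE 0.321, adjusted p = 0.403, edgeR), counts of 7 to 39 reads per library over the 12 mice. Mouse 5 was the highest, and the Cox7a1 change was 0.51 without it (adjusted p = 0.611, edgeR). Without mice 5 and 6 it was 0.67, against 1.25 without mice 3, 6, 9 and 12. Summed levels of 5 pericyte and smooth muscle markers ranged from 76.7 to 90.3 CPM in eGFP+mIgG and from 83.7 to 85.3 CPM in eGFP+mAdu, with none at 0 in any library. Most of that sum was Rgs5 (mean 55.2 CPM over the 12 mice). The mean of the 5 markers' log2 CPM, each centred on its own mean, weighs them alike. It was 0.213, -0.088 and 0.163 in mice 1 to 3 and 0.054, -0.139 and 0.053 in mice 4 to 6. The part of these cells in the Cox7a1 values was not tested. Cox6a2 had the most negative change (3.01, 2.69 and 2.43 against 3.05, 3.77 and 3.13 CPM, log2 -0.27, SE 0.14, adjusted p = 0.579, edgeR).

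As a mean over the 78 nuclear members of log2 CPM centred on each gene, the level was -0.016, -0.018 and -0.031 in mice 1 to 3, 0.037, 0.022 and -0.01 in mice 4 to 6, 0.06, -0.072 and 0.011 in mice 7 to 9 and 0.001, 0.012 and 0.005 in mice 10 to 12. The 3 double controls were thus below every mouse of eGFP+mAdu and of mVEGF-C+mAdu, by small margins, while mice 7 and 8 of mVEGF-C+mIgG were the highest and lowest of the 12. The median change under the antibody with eGFP was 0.05 without mice 5 and 6, 0.05 without mice 3, 6, 9 and 12, 0.02 after a correction for GC content and length and 0.03 with scaling that left out ENSMUSG00000045999. No gene of the other lists passed in this comparison. The median was 0.04 for 94 genes with Rpl or Rps symbols, mostly cytosolic ribosomal proteins but with S6 kinase genes among them (77 above 0), 0.03 for 76 mitochondrial ribosomal protein genes (53 above 0), 0.04 for 18 tricarboxylic acid cycle genes (16 above 0) and 0.04 for 17 glycolysis genes (12 above 0). It was 0.0063 for 30 regulators of mitochondrial transcription and biogenesis (16 above 0), 0.0076 for 12 genes of the mitochondrial unfolded protein response (7 above 0) and 0.02 for 45 assembly factors (26 above 0). Their part in the nuclear values was not tested.

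**Figure D4:**
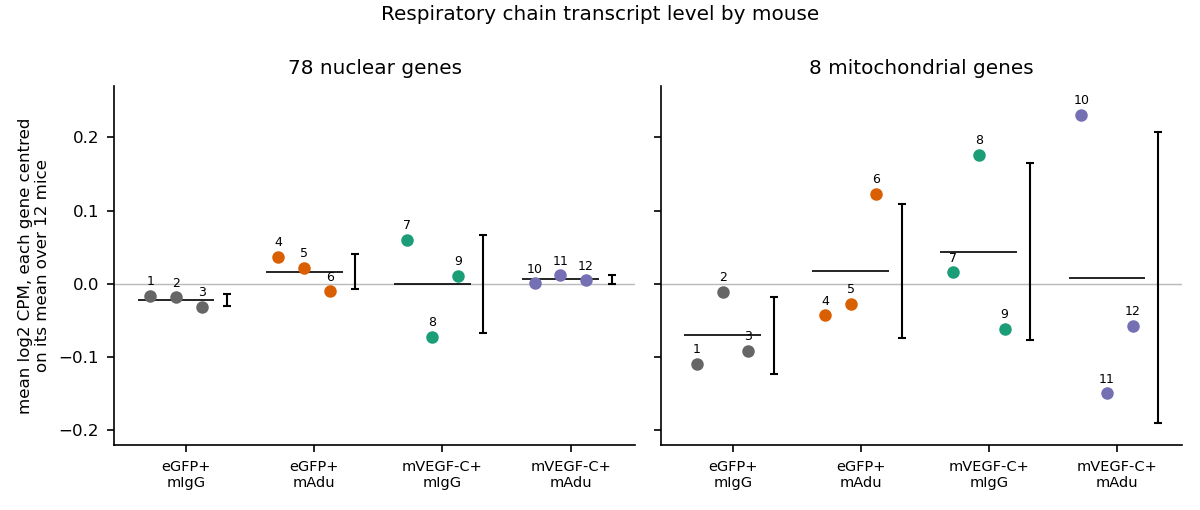
Mean log2 CPM over the 78 nuclear (left) and 8 mitochondrial (right) members in each numbered mouse, each gene centred on its mean over 12 mice, with the group mean (line) and SD (bar, n = 3). The nuclear level runs from -0.072 in mouse 8 to 0.06 in mouse 7, and the mitochondrial level from -0.149 in mouse 11 to 0.231 in mouse 10.

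Mouse 8 carried the lowest value of 43 of the 78 nuclear members and mouse 7 the highest of 24, both of mVEGF-C+mIgG. In that comparison of vectors under mIgG, mVEGF-C+mIgG against eGFP+mIgG, 0 nuclear and 0 mitochondrial members passed with edgeR (quasi-likelihood, Benjamini-Hochberg), as against 6 of all genes (0.0403%). Unadjusted p was under 0.05 for 2 nuclear members and 1 mitochondrial member (7.91% of all genes). DESeq2 called 0 members and limma-voom 1 nuclear and 1 mitochondrial member, with 0.134% and 6.3% of all genes. The nuclear median was 0.01, with 53 of 78 above 0 (50.2% of all genes), and it was 0.05 without mouse 8. The intervals of 75 lay within 1.25-fold (67.8% of all genes), and 2 members were higher and 0 lower without overlap (6.38% and 5.99% of all genes). Cox7a1 was at 0.856, 0.954 and 0.801 CPM against 0.581, 0.325 and 0.551 CPM (log2 0.80, SE 0.33, adjusted p = 0.613, edgeR), with no overlap of the groups. Ndufa1, an accessory subunit of the membrane arm of complex I, had a log2 change of 0.12 (SE 0.052), and Ndufs5, another accessory subunit, of 0.10 (SE 0.0495). The negative changes with the smallest p were those of Cox6a2 (-0.20, SE 0.14), Uqcrc1 (-0.04, SE 0.0476) and Sdhb (-0.04, SE 0.045).

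Beside the nuclear level of mouse 8 stood markers of other cells and regions. On the same centred scale, excitatory neuron markers were at 0.21, neocortex markers at 0.304 and oligodendrocyte markers at 0.278 in mouse 8, and at -0.15, -0.259 and 0.032 in mouse 7. Markers of dentate granule cells were at -0.144 in mouse 8 and 0.252 in mouse 7, those of CA1 and CA3 at -0.109 and 0.1, and those of meningeal fibroblasts at -0.439 and 0.142, low and high as the nuclear members were. Mitochondrial ribosomal proteins (-0.066), glycolysis (-0.085) and assembly factors (-0.056) were low in mouse 8 as the nuclear members were. The part of tissue makeup in these values was not tested. After the correction for GC content and length the nuclear level was 0.026 in mouse 7 and -0.046 in mouse 8.

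The vector was compared under the antibody as mVEGF-C+mAdu against eGFP+mAdu. Here 0 nuclear and 0 mitochondrial members passed with edgeR (quasi-likelihood, Benjamini-Hochberg), and 7 of all genes (0.047%) did. Unadjusted p was under 0.05 for 6 nuclear and 0 mitochondrial members (14.3% of all genes), and DESeq2 called 0 members and limma-voom 2 nuclear and 0 mitochondrial members, with 0.947% and 6.52% of all genes. The intervals of 74 lay within 1.25-fold (65.5% of all genes). The median change was -0.01 with 34 of 78 above 0 (50.4% of all genes), and 9 members were higher and 8 lower without overlap (11.5% and 10.2% of all genes). Sdhd had the smallest p (log2 0.13, SE 0.0442, adjusted p = 0.213, edgeR). Atp5g1, a c subunit gene, was at 109, 118 and 112 CPM against 105, 102 and 103 CPM (log2 0.13, SE 0.0524, adjusted p = 0.272, edgeR). Atp5mpl, a small proteolipid of the synthase, had a change of 0.09 (SE 0.0412). On the other side stood Ndufb7 (-0.15, SE 0.0589), Ndufs7 (-0.14, SE 0.0561) and Atp5l (-0.20, SE 0.0826). Of the nuclear members, 12 of 37 of complex I and 9 of 17 of complex V were above 0.

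Under the mVEGF-C vector, the antibody (mVEGF-C+mAdu) set against mIgG (mVEGF-C+mIgG) yielded 0 nuclear and 0 mitochondrial members by edgeR (quasi-likelihood, Benjamini-Hochberg), and 31 of all genes (0.208%). Unadjusted p was under 0.05 for 3 nuclear and 0 mitochondrial members (12.7% of all genes), and DESeq2 called 0 members and limma-voom 1 nuclear and 0 mitochondrial members, with 0.847% and 8.29% of all genes. The nuclear median was 0.0021, with 41 of 78 above 0 (50.5% of all genes), and 75 intervals lay within 1.25-fold (66% of all genes). Without overlap of the groups 2 members were higher and 1 lower (8.37% and 8.12% of all genes). Atp5g1 was at 109, 118 and 112 CPM against 109, 92.8 and 103 CPM, a log2 change of 0.15 (SE 0.0526, adjusted p = 0.231, edgeR), and mouse 7 overlapped the treated mice. Atp5j, the coupling factor of the peripheral stalk (0.09, SE 0.0412), and Sdhd (0.09, SE 0.0443) followed. Ndufs5 (-0.12, SE 0.0496), Atp5g2 (-0.15, SE 0.0736) and Atp5l (-0.15, SE 0.0834) had the lowest p among negative changes.

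Whether the antibody acted differently with the 2 vectors was tested as an interaction. No member passed with edgeR (quasi-likelihood, Benjamini-Hochberg) (0 nuclear, 0 mitochondrial, 0.0134% of all genes). Unadjusted p was under 0.05 for 2 nuclear and 0 mitochondrial members (6.82% of all genes), and DESeq2 and limma-voom called 0 members, with 0.0538% and 1.48% of all genes. The 2 nuclear members were Cox7a1 (-1.14, SE 0.444, adjusted p = 0.681, edgeR) and Atp5g1 (0.17, SE 0.0743, adjusted p = 0.716, edgeR), the antibody difference being lower with mVEGF-C for the first and higher for the second. Without mouse 5 the interaction of Cox7a1 was -0.71. The nuclear median was -0.03 with 26 of 78 above 0 (51.7% of all genes), and -0.0044 after the correction for GC content and length. The wider intervals of this contrast lay within 1.25-fold for 72 (51.9% of all genes). The genes with Rpl or Rps symbols had a median of -0.06 with 20 of 94 above 0.

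Averaged over vectors, the antibody gave 0 nuclear and 0 mitochondrial members by edgeR (quasi-likelihood, Benjamini-Hochberg) (0.571% of all genes), with 4 nuclear members and 1 mitochondrial member at an unadjusted p under 0.05 (15.5% of all genes). DESeq2 called 0 members and limma-voom 3 nuclear and 0 mitochondrial members, with 1.76% and 11.3% of all genes. Ndufb5 led with a log2 change of 0.09 (SE 0.0292, adjusted p = 0.167, edgeR), followed by Cox7a2 (0.07, SE 0.0262) and Ndufb6, of the membrane arm (0.09, SE 0.0367). Ndufa5, of the matrix arm, had -0.06 (SE 0.0271). Of 78 nuclear members 54 were above 0 (49.3% of all genes), and 75 had intervals within 1.25-fold (77.4%). Averaged over antibodies, the mVEGF-C vector gave 0 nuclear and 0 mitochondrial members by edgeR (0.39% of all genes), with 5 nuclear members and 1 mitochondrial member at an unadjusted p under 0.05 (16% of all genes). DESeq2 called 0 members and limma-voom 3 nuclear members and 1 mitochondrial member, with 1.18% and 12% of all genes. Sdhd led with 0.10 (SE 0.0314, adjusted p = 0.168, edgeR), followed by Cox7b (0.07, SE 0.0309) and Atp5f1, the b subunit of the stalk (0.06, SE 0.0256), with Ndufs7 at -0.09 (SE 0.0396). Here 42 of 78 were above 0 (49.2% of all genes), and 76 had intervals within 1.25-fold (78.4%). Any difference among the 4 groups was found by edgeR for 0 nuclear and 0 mitochondrial members (0.618% of all genes), with 3 nuclear members and 1 mitochondrial member at an unadjusted p under 0.05 (17.6% of all genes). There DESeq2 called 0 nuclear members and 1 mitochondrial member (3.12% of all genes), and limma-voom 4 and 1 (24.6%).

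The mitochondrial members differed more between mice than the nuclear ones, with a median coefficient of variation within groups of 10%. They took 1.33% to 1.7% of the counted reads, 1.41% ± 0.0619, 1.56% ± 0.0637, 1.56% ± 0.0869 and 1.5% ± 0.184 in the 4 groups in the order above (SD, n = 3), and with ENSMUSG00000045999 left out of the total the share of eGFP+mIgG was 1.51% ± 0.00983. mt-Co1, the catalytic subunit of complex IV, made up 64.7% to 68.5% of these reads. Shares and order cover the 8 members only, since mt-Nd4l, mt-Co2, mt-Co3, mt-Atp6 and mt-Atp8 were not among the genes counted. Per kilobase, mt-Co1 stood at 6529 CPM, mt-Nd1, next to the quinone site of complex I, at 2305 and mt-Cytb, the cytochrome of complex III, at 1127. They were followed by mt-Nd2 (606), mt-Nd4 (360) and mt-Nd5 (170), the proton pumping subunits of complex I. The lowest were mt-Nd3 (65.8) and mt-Nd6 (47.9), the latter encoded on the light strand. Apart from mt-Nd3 and mt-Nd6, neighbours in this order did not overlap over the 12 mice.

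Exons of 6 mitochondrial members overlap other annotated mitochondrial genes (mt-Nd5 and mt-Nd6 with each other, mt-Nd4 with mt-Nd4l, and mt-Nd1, mt-Nd2 and mt-Co1 with tRNAs), and their split is uncertain without strand and multi-overlap settings. mt-Nd3 and mt-Cytb have no such overlap. Of annotated nuclear copies on chromosome 1, Gm28437, Gm28661 and Gm29216 held 0.572 to 2.59 CPM in the 12 libraries, and how the counting treated reads that fit both places is not stated.

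The mitochondrial members were high or low together in single mice within groups. Mice 6 (eGFP+mAdu) and 10 (mVEGF-C+mAdu) were among the 3 highest for 8 of 8 members and mouse 8 (mVEGF-C+mIgG) for 7 of 8, while mouse 11 (mVEGF-C+mAdu) was the lowest for 5 of 8. mt-Co1 was at 9875, 9897 and 10060 CPM in eGFP+mIgG, 10244, 9813 and 10566 in eGFP+mAdu, 9882, 10645 and 10120 in mVEGF-C+mIgG, and 11403, 8733 and 9806 in mVEGF-C+mAdu. The doubly treated group thus held both the highest and the lowest mouse. mt-Nd1 was highest in mouse 8 (2562 CPM), then mouse 10 (2515 CPM), and lowest in mouse 11 (1894 CPM). mt-Cytb ran from 1112 CPM in mouse 11 to 1490 CPM in mouse 8.

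**Figure D5:**
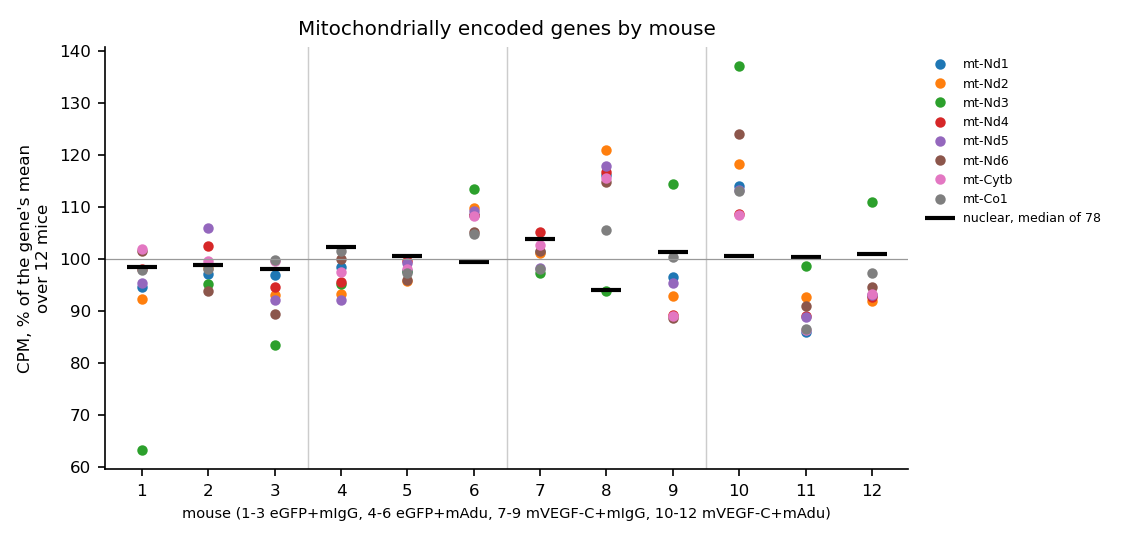
CPM of the 8 mitochondrial members in each mouse as a percentage of the gene's mean over 12 mice, with the median over the 78 nuclear members as a black dash. In mouse 8, 7 of 8 mitochondrial members lie above 100% while the nuclear median is at 94%, and mt-Nd3 runs from its lowest value in mouse 1 (14.5 CPM) to its highest in mouse 10 (31.4 CPM).

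The patterns of the genomes did not follow each other in mouse 8, which was lowest for 43 of 78 nuclear members and highest for 5 of 8 mitochondrial ones. Of the mitochondrial members that varied beyond counting noise, mouse 6 held the middle value for 0 of 6 and mouse 9 for 1 of 7, against 3 of 6 for mouse 3 and 7 of 8 for mouse 12.

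Across comparisons the mitochondrial medians were 0.06 for the antibody with eGFP (8 of 8 above 0), -0.07 with mVEGF-C (2 of 8), 0.09 for the vector with mIgG (8 of 8), -0.03 with mAdu (3 of 8) and 0.02 for both together (6 of 8). The interaction was below 0 for 8 of 8, with a median of -0.12 and a lowest adjusted p of 0.847 (edgeR), that of mt-Nd1 (-0.18, SE 0.121). Comparisons with eGFP+mIgG share that group, so their signs are not separate evidence. Without mice 3, 6, 9 and 12 the median for the antibody with eGFP was -6e-04, and it was 0.0072 without mice 5 and 6, mouse 6 being the high mouse of that group. Single libraries set the other medians too. For the vector with mIgG it was 0.0024 without mouse 8, 0.05 without mouse 3 and 0.18 without mouse 9, and for both treatments -0.10 without mouse 10 and 0.10 without mouse 11. For the vector with mAdu it was -0.14 without mouse 10 and 0.05 without mouse 11, for the antibody with mVEGF-C -0.19 without mouse 10 and 0.015 without mouse 8, and for the interaction -0.23 and -0.03. The mitochondrial ribosomal RNA mt-Rnr2, which is no member, lay at 35945 to 51793 CPM.

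mt-Nd3, a membrane arm subunit of complex I and the shortest mitochondrial member (M:9459-9806, plus strand, 348 bases), was the member with the lowest adjusted p. Its level was 14.5, 21.8 and 19.1 CPM in eGFP+mIgG, 21.8, 22.4 and 26 in eGFP+mAdu, 22.3, 21.5 and 26.2 in mVEGF-C+mIgG and 31.4, 22.6 and 25.4 in mVEGF-C+mAdu. Mouse 1 was the lowest and mouse 10 the highest of the 12, and all 3 doubly treated mice were above the 3 double controls. The group means were 18.5 ± 3.68, 23.4 ± 2.29, 23.4 ± 2.49 and 26.4 ± 4.51 CPM (SD, n = 3), from 400 to 817 reads per library. Double treatment against double control gave a log2 change of 0.53 (SE 0.135, 95% interval 0.24 to 0.81, adjusted p = 0.0535, edgeR), which did not pass. DESeq2 gave 0.52 with an adjusted p of 0.00867. Without mouse 2 the change was 0.65 (adjusted p = 0.0264, edgeR), and without mice 3, 6, 9 and 12 it was 0.58 (adjusted p = 0.56, edgeR). It was 0.38 without mouse 1 and 0.38 without mouse 10 (adjusted p = 0.216 each, edgeR). The other 7 mitochondrial members ranged from -0.06 for mt-Cytb to 0.12 for mt-Nd6 in that comparison.

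The single treatments gave mt-Nd3 log2 changes of 0.35 (SE 0.136, adjusted p = 0.459, edgeR) for the antibody and 0.35 (SE 0.137, adjusted p = 0.593, edgeR) for the vector, against the same 3 controls. Without mouse 1, the lowest control, each was 0.20 (adjusted p = 0.851 and 0.963, edgeR). Its interaction was -0.17 (SE 0.19, adjusted p = 0.947, edgeR). Beside it, 2 mitochondrial tRNA genes passed for both treatments together, mt-Tw (0.44, SE 0.105, adjusted p = 0.0396, edgeR) and mt-Tp (0.62, SE 0.136, adjusted p = 0.032, edgeR), out of 6 measured, 5 of them above 0. mt-Tp was at 2.11, 2.46 and 2.86 CPM in the controls and 3.69, 4 and 3.78 CPM in the doubly treated mice. Gm42418 (-1.08, adjusted p = 0.0235, edgeR) and Lars2 (-1.22, adjusted p = 0.0243, edgeR) fell in the same comparison, with Gm42418 at 298, 283 and 132 CPM in mice 1 to 3, the mice in which ENSMUSG00000045999 was high, against 96.5 to 134 CPM elsewhere. The part of that read excess in the mt-Nd3 values was not tested.

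Genes that serve the chain were counted from lists of their own. Of 45 measured assembly factors 1 passed, Ndufaf4, a factor of complex I assembly. It rose with both treatments against the double control (log2 0.23, SE 0.0457, adjusted p = 0.024, edgeR). It also rose with the antibody averaged over vectors (0.15, SE 0.0323, adjusted p = 0.049, edgeR). Over all genes 2.18% and 0.571% passed in these comparisons, so 1 call among 45 cannot be read as a result about assembly factors. The list's median for both treatments together was 0.0045 with 25 of 45 above 0. None of 30 regulators of mitochondrial transcription and biogenesis passed in any comparison, and for both treatments together 24 of 30 were above 0 with a median of 0.06 (all genes -0.0036). None passed of 18 tricarboxylic acid cycle genes (15 above 0, median 0.05), 20 carriers and outer membrane genes (16 above 0, median 0.06), 12 genes of the mitochondrial unfolded protein response (8 above 0, median 0.06), 10 antioxidant genes (5 above 0, median -0.01), 76 mitochondrial ribosomal protein genes (44 above 0, median 0.02) or 17 glycolysis genes (9 above 0, median 0.0051), medians given for both treatments together. Nor did any of 8 other genes tied to the chain that the symbols leave out, not all of them subunits. Among them were Cox4i1 (364 to 403 CPM), an isoform of subunit 4 of complex IV, and Cycs, cytochrome c itself (log2 0.10, SE 0.0528). Among markers of other cells, Ttr of the choroid plexus fell with both treatments (-1.62, adjusted p = 0.00895, edgeR), as did Foxj1 of ependyma (-0.55, adjusted p = 0.0396, edgeR), 1 of 5 astrocyte markers, Aldh1l1 (-0.21, adjusted p = 0.0457, edgeR), and C1qa of microglia (-0.43, adjusted p = 0.042, edgeR). The astrocyte list as a whole had a median of -0.02 with 2 of 5 above 0. The summed level of 4 choroid plexus markers was 55.6 to 102, 71 to 86.6, 48.1 to 53.5 and 39.2 to 42.9 CPM in the 4 groups in the order above, with none at 0 in any library, and the part of tissue makeup in the members' values was not tested beyond a fit with that level as a covariate.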

How the data were processed

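The deposited table holds 1 whole-number read count per gene for each of the 12 libraries. Per the submitters' processing notes, the authors used FastQC, Trim Galore, STAR, Subread's featureCounts and edgeR with mm10; versions, annotation, strand and multi-mapping settings were not given in the sources used here. Replicate numbers 1 to 12 came from the labels. From these counts, edgeR 4.0.16 (R 4.3.3) with TMM scaling, filterByExpr, 1 mean per group over all 12 libraries and the quasi-likelihood test gave two-sided p-values, Benjamini-Hochberg adjusted over all 14881 genes with a threshold of 0.05, for 9 comparisons. DESeq2 1.42.0 and limma 3.58.1 (voom with sample quality weights) were alternatives, as were other scalings, filters, a GC and length correction (loess span 0.4), a choroid plexus covariate and subsets of libraries. Only the edgeR fit of double treatment against double control was tested on simulated data. CPM use TMM library sizes; log2 CPM a prior count of 2. Symbols and exon lengths came from GENCODE M21 on mm10, and 84 identifiers had no symbol. The count totals limit precision most for members with few reads. Members and lists were chosen with earlier results of these data known. The text names, per comparison, up to 3 nuclear members per direction by smallest p where none pass, the mitochondrial member with the smallest p, 1 or more core subunits per complex, isoform pairs and the extremes of level and spread. No p is given for a sum or mean over members, so the read share, planned with an exact permutation test, is given as values. p-values measure the spread between libraries, each from 1 mouse per the labels.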

Additional observations from a re-analysis of the deposited data

How the results depend on the processing

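No member was called by edgeR's quasi-likelihood test in any of the 9 comparisons. This held under other size factors, no filter on low counts, both changes of scaling and the GC and length correction. None was called with the choroid plexus covariate either. That level, on the centred log2 scale, was -0.734 to -0.354 in mVEGF-C+mAdu and 0.085 to 0.405 in the eGFP groups. The covariate thus cannot be cleanly told apart from vector or double treatment, and the lack of calls there says little. Nor was any member called without mice 3, 6, 9 and 12, a fit with fewer libraries per group and so less able to call. With limma-voom the count of nuclear members rose to 4 for any difference, 1 for the antibody with mVEGF-C, 1 and 2 for the vector with mIgG and with mAdu, 6 for both treatments, 3 for the antibody and 3 for the vector on average. It called 1 mitochondrial member, mt-Nd3, for any difference, the antibody with eGFP, the vector with mIgG, both treatments and the vector on average. DESeq2 called 1 mitochondrial member, mt-Nd3, for any difference (a likelihood ratio test) and for both treatments, and gave no adjusted p for at most 3 nuclear members. Only the compared groups in the fit gave 1 nuclear member (Sdhd, adjusted p = 0.0417, edgeR) and 1 mitochondrial member (mt-Nd3, 0.0437) for both treatments. Leaving out each library in turn gave 0 to 1 mitochondrial members for both treatments (mt-Nd3 without mouse 2, 7, 8 or 11, adjusted p = 0.0264, 0.039, 0.0379 and 0.0425, edgeR), 0 to 1 nuclear members there (Sdhd without mouse 8, 0.0376) and 0 to 1 for the vector on average (Ndufs7 without mouse 7, 0.0465). The fit of all libraries called 2.18% of all genes for both treatments and 0.39% for the vector on average. The share over all genes was not taken for the smaller fits, so their calls cannot be read as particular to the members. The mitochondrial read share of eGFP+mIgG moved from 1.41% to 1.51% without ENSMUSG00000045999. Signs of uncalled changes turned for Uqcrc1 (-0.0849 to 0.0037) and Sdhb (-0.0678 to 0.0157) in the vector comparison with mIgG when each library was left out. With the choroid plexus covariate they turned for Ndufb7 (0.0569 for the vector with mAdu, 0.0698 for both treatments, 0.0473 for the vector on average) and mt-Nd3 (-0.085 for the vector with mAdu), and with the GC and length correction for Atp5f1 (-0.0048 for the vector on average). The cause was not tested. No paired analysis was possible because the replicate numbers 1 to 12 are all different, so the groups share none.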
